A study of Mus musculus with 175 samples.

Results

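The Krüppel-like factors (KLFs) examined here were 8 genes, Klf1, Klf2, Klf3, Klf4, Klf6, Klf7, Klf10 and Klf13, taken by their symbols from the 49585 mouse genes of the count table, which holds 17 Klf genes in all. They were measured by Smart-Seq2, a full-length cDNA method, in single progenitors of the E14.5 mouse fetal liver (day 14.5 after fertilization, C57BL/6 crossed with ICR). All cells carried a Runx1 reporter allele over a normal one. The protocol label and the article name it P1-GFP::P2-hCD4/+, while the genotype label reads P2-GFP::P2-hCD4/+. Human CD4 on the cell surface reports the activity of P2, a promoter of Runx1, and divides the progenitors into P2- and P2+ cells. According to the article, megakaryocyte-erythroid progenitors (MEPs) were sorted as Lin- SCA1- C-KIT+ CD16/32low CD34- cells and common myeloid progenitors (CMPs) as their CD34+ counterparts, both CD41- and CD150+. After the cell filters there were 56 P2- MEPs, 47 P2+ MEPs, 27 P2- CMPs (labelled CMP_low) and 42 P2+ CMPs (labelled CMP_high), 172 of 175 deposited cells. Livers of 2 litters were pooled before the sort, so each population is 1 sample without a replicate, no test between populations was possible and no p-value is given.

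KLFs are zinc finger transcription factors that bind CACCC boxes and GC-rich elements in promoters and enhancers, where they compete with one another and with the Sp factors. One group (KLF1, KLF2, KLF4, KLF6 and KLF7 here) acts largely through coactivators, KLF3 represses through the CtBP corepressors, and KLF10 and KLF13 bind the SIN3A corepressor. In red cell development KLF1 is the central activator of globin, heme and membrane genes, and the Klf3 gene is itself known as a target of KLF1.

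Levels are given as CPM (reads of a gene per 1000000 reads on mouse genes), pooled over the cells of a population, with exact Poisson 95% intervals. A member was called higher or lower where pooled CPM differed at least 2-fold (1 on the log2 scale) and the exact conditional binomial 95% interval of the ratio excluded no change. Both intervals cover counting error only, since reads of 1 cDNA molecule are not independent and cells of 1 pool are not replicates. The kept cells had 571806 to 2827426 reads in all and 295064 to 1540631 on mouse genes. Cd34, which the sort divides on, was at 0.0327 CPM (P2-) and 13.05 CPM (P2+) in MEPs against 274.3 CPM (P2-) and 541 CPM (P2+) in CMPs, and Kit was between 259.3 and 369.3 CPM in all 4 populations. Runx1, whose P2 promoter the reporter reads, was higher in P2+ than in P2- cells, at 57.0 against 23.4 CPM in MEPs and 155.7 against 71.5 CPM in CMPs. Slamf1 (CD150) was at 8.23 CPM in P2- MEPs, with a read in 6 of 56 cells at 100000 reads per cell, and between 37.2 and 97.2 CPM in the other populations. Itga2b (CD41) was at 103 CPM in P2+ MEPs, with a read in 33 of 47 cells, and between 32.02 and 39.1 CPM elsewhere. For 1 P2- CMP the cell subtype label reads MEP. It held 151 Klf1 reads and is included.

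The annotation places each member at its own locus on GRCm38. Klf1 lies at chr8:84901928-84905291 (plus strand), Klf3 at chr5:64803388-64832901 (plus strand) and Klf6 at chr13:5861482-5870394 (plus strand). The other members lie at chr8:72319033-72321656 (Klf2, plus strand), chr4:55527143-55532466 (Klf4, minus strand), chr1:64029447-64122282 (Klf7, minus strand), chr15:38291463-38300706 (Klf10, minus strand) and chr7:63886351-63938915 (Klf13, minus strand). Reads were counted over exons without regard to strand, and 39.4% of the exon bases of Klf7 and 3.59% of those of Klf3 overlap noncoding genes of the opposite strand (Gm13748 and Gm26649 for Klf7, Gm20033 for Klf3), where reads are ambiguous. The other 6 members share no exon bases with another gene.

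The promoters of Klf1, Klf3 and Klf6 are shown as those of 3 of the 5 members with a called difference, Klf1 and Klf3 being lower in CMPs than in MEPs and Klf6 higher outside the P2- MEPs. The others are Klf2 and Klf7, which had few reads. Each is a RefSeq sequence of GRCm38.p6, 300 bases from 250 before the transcription start to 50 after it, read 5′ to 3′ on the strand of the gene, with CACCC (or GGGTG, its reverse complement) and GATAA (or TTATC) in capitals. A promoter was used where exactly 1 sequence of 300 bases carried the symbol of a member, which held for 7 of the 8 members, all but Klf10.
Klf1 (chr8:84901732-84902031, plus strand): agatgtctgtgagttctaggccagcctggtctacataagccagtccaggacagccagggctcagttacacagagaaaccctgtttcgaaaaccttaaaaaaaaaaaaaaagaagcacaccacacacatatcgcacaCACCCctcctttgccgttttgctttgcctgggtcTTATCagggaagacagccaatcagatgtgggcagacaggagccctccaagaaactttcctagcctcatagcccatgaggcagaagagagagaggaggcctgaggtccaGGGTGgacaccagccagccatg
Klf3 (chr5:64803271-64803570, plus strand): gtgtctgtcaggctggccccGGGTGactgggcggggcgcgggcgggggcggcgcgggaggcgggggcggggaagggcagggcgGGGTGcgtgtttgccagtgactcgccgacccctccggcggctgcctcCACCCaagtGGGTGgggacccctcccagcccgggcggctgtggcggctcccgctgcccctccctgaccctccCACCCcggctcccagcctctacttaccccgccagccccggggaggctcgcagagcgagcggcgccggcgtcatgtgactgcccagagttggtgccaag
Klf6 (chr13:5861239-5861538, plus strand): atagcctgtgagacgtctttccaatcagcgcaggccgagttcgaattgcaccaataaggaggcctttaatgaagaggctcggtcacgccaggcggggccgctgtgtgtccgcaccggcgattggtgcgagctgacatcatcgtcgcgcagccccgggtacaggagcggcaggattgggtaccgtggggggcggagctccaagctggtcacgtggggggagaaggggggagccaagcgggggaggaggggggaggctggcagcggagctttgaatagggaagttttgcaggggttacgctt

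The Klf3 promoter held 5 CACCC matches, that of Klf1 held 2 and that of Klf6 held 0, while Klf7 held 3, Klf2 and Klf13 held 1 each and Klf4 held 0. At least 1 match was thus found in 5 of the 7 member promoters, against 57.5% of all 32851 promoters in the table. GATAA, the letters of a GATA factor box, was found in the Klf1 promoter, 80 bases before the start, and in 1 of the 7 member promoters in all, against 25.4% of all promoters. Matches of the motifs did not overlap each other. They describe letters in these windows and not binding.

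Klf1 was by far the most abundant member in both MEP populations and nearly absent from P2+ CMPs. Pooled Klf1 was 478 CPM in P2- and 243.5 CPM in P2+ MEPs, and 87.4 CPM (83.1 to 91.8) in P2- and 4.59 CPM (3.92 to 5.35) in P2+ CMPs. In P2- CMPs the interval overlapped that of Klf13, and 1 cell held 21.8% of the Klf1 reads. Over cells, the lowest, median and highest Klf1 levels were 221.2, 477 and 894 CPM for the P2- MEPs and 0, 210.9 and 846 CPM for the P2+ MEPs. They were 0, 7.53 and 343.7 CPM for the P2- CMPs and 0, 0 and 160 CPM for the P2+ CMPs. Every P2- MEP lay above 200 CPM, whereas the other populations ranged from cells without a read into or near the range of the P2- MEPs. After each cell was thinned to 100000 reads, 56 of 56 P2- and 40 of 47 P2+ MEPs had a Klf1 read, as had 13 of 27 P2- and 2 of 42 P2+ CMPs. The log2 ratio was -0.97 (-1.01 to -0.93) for P2+ over P2- MEPs, just short of 2-fold, and -4.25 (-4.49 to -4.02) for P2+ over P2- CMPs. Between CMPs and MEPs it was -2.45 (-2.53 to -2.38) in P2- cells and -5.73 (-5.96 to -5.51) in P2+ cells. In P2+ CMPs 1 cell held 82.6% of the 167 Klf1 reads, and without the cell of highest CPM in each population the P2+ over P2- ratio in CMPs was -6.47 and the CMP over MEP ratio in P2+ cells -8.10.

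Klf3, the CtBP-dependent repressor, had the same order of populations by pooled level as Klf1, over a smaller range. Its levels were lower than those of Klf1 in all but the P2+ CMPs. Among MEPs, pooled Klf3 was 57.9 CPM (55.2 to 60.6) in the P2- and 31.8 CPM (29.8 to 33.8) in the P2+ cells. Among CMPs it was 23.2 CPM (21.03 to 25.5) in the P2- and 12.5 CPM (11.4 to 13.7) in the P2+ cells. No neighbours in this pooled order had overlapping intervals, which cover counting error only. Over cells Klf3 ranged from 0 to 211.4 CPM with a median of 49.8 CPM in P2- MEPs. In the other 3 populations the median was 0, and the highest cells reached 154 CPM (P2+ MEPs), 114 CPM (P2- CMPs) and 87.8 CPM (P2+ CMPs). The ranges of all 4 populations thus overlapped, and the populations differed most in how many cells had a read. Among MEPs these were 43 of 56 P2- cells (76.8%, 63.6 to 87.0, Clopper-Pearson 95% interval) and 16 of 47 P2+ cells (34.0%, 20.9 to 49.3), and among CMPs 12 of 27 P2- cells (44.4%, 25.5 to 64.7) and 10 of 42 P2+ cells (23.8%, 12.1 to 39.5). Among the cells with a read before thinning, the median was 61.7, 56.7, 54.2 and 35.7 CPM in the same order. By share of cells with a read, P2- CMPs came above P2+ MEPs, with overlapping intervals. The log2 ratio of CMPs over MEPs was -1.32 (-1.48 to -1.17) in P2- cells and -1.35 (-1.51 to -1.19) in P2+ cells, both called lower. Those of P2+ over P2- cells, -0.87 (-0.98 to -0.75) in MEPs and -0.89 (-1.09 to -0.70) in CMPs, stayed under 2-fold, but passed it at -1.12 and -1.11 when every cell was given equal weight.

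**Figure D1:**
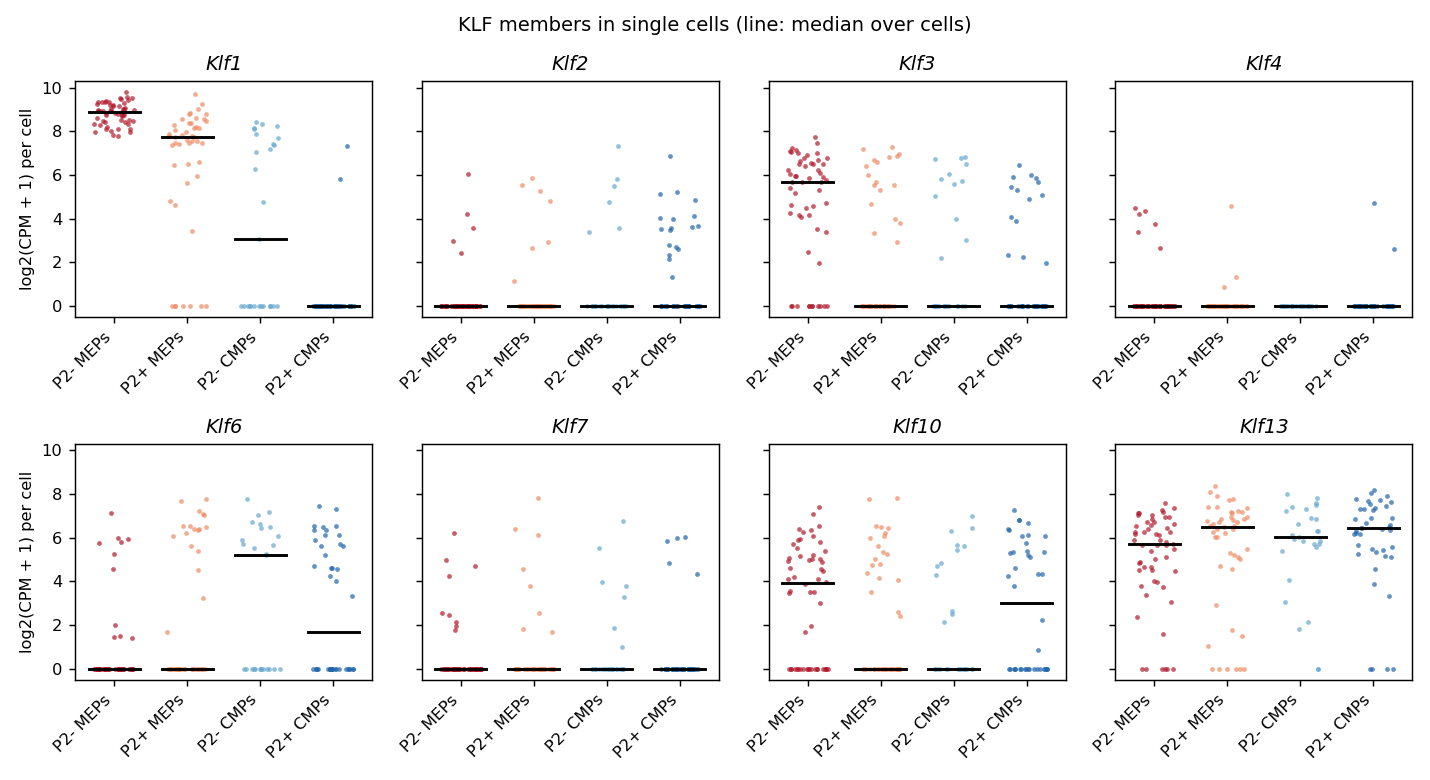
Level of each KLF member in each of the 172 cells, as log2(CPM + 1) on the y axis, by population on the x axis, with 1 point per cell and a black line at the median. All P2- MEPs lie high for Klf1 while only 2 of 42 P2+ CMPs have a read of it, Klf3 has a median above 0 in P2- MEPs alone, and Klf13 has a median above 0 in all 4 populations.

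Klf6, an early response gene whose product is needed for blood formation in the yolk sac, was low in P2- MEPs and several-fold higher in the other 3 populations. Pooled Klf6 was 6.86 CPM (5.96 to 7.85) in P2- and 37.9 CPM (35.8 to 40.2) in P2+ MEPs, and 44.9 CPM (41.9 to 48.1) in P2- and 32.8 CPM (31.01 to 34.8) in P2+ CMPs. Cells of the P2- MEPs ran from 0 to 140 CPM (median 0) and those of the P2+ MEPs from 0 to 213.9 CPM (median 0). Those of the P2- CMPs ran from 0 to 215.9 CPM (median 35.5) and those of the P2+ CMPs from 0 to 176 CPM (median 4.59). Again the ranges overlapped, and reads were found in 8 of 56 P2- and 16 of 47 P2+ MEPs and in 14 of 27 P2- and 19 of 42 P2+ CMPs. The log2 ratio was 2.47 (2.25 to 2.69) for P2+ over P2- MEPs and 2.71 (2.49 to 2.94) for CMPs over MEPs among P2- cells, both called higher. It was -0.45 (-0.58 to -0.32) for P2+ over P2- CMPs and -0.21 (-0.32 to -0.09) for CMPs over MEPs among P2+ cells, neither reaching 2-fold.

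Because Klf6 and Klf10 are known as early response genes, 17 immediate early and stress genes were read beside them. Of the 13 that passed the filter of a mean count of 1, 8 were called higher and 0 lower in P2+ over P2- MEPs, where 14.9% of all 11860 genes tested were called higher and 6.42% lower (median log2 ratio 1.56, against 0.05 over all genes, in each case over genes with more than 3 reads in either population). In P2- CMPs over P2- MEPs 8 were higher and 0 lower, against 22.4% and 9.21% of all genes (1.41 over the 12 with a ratio, against 0.11). In P2+ over P2- CMPs 0 of the 13 were called, against 9.75% and 9.31% (-0.21 over 12, against -0.02), and in P2+ CMPs over P2+ MEPs 1 was higher and 1 lower, against 17.0% and 10.3% (-0.03, against 0.01). Fos was at 122 CPM (P2-) and 435 CPM (P2+) in MEPs and at 328.8 CPM (P2-) and 407 CPM (P2+) in CMPs, and Egr1 at 28.7, 127, 111 and 170 CPM in the same order. Over cells, the summed level of the list was 53.6 to 2179 CPM (median 403) for P2- and 52.9 to 3989 CPM (median 1302) for P2+ MEPs. It was 158 to 4288 CPM (median 1375) for P2- and 225.8 to 3838 CPM (median 1179) for P2+ CMPs. P2- MEPs were thus low for this list as for Klf6, and the part of the list's genes in the Klf6 result was not tested.

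**Figure D2:**
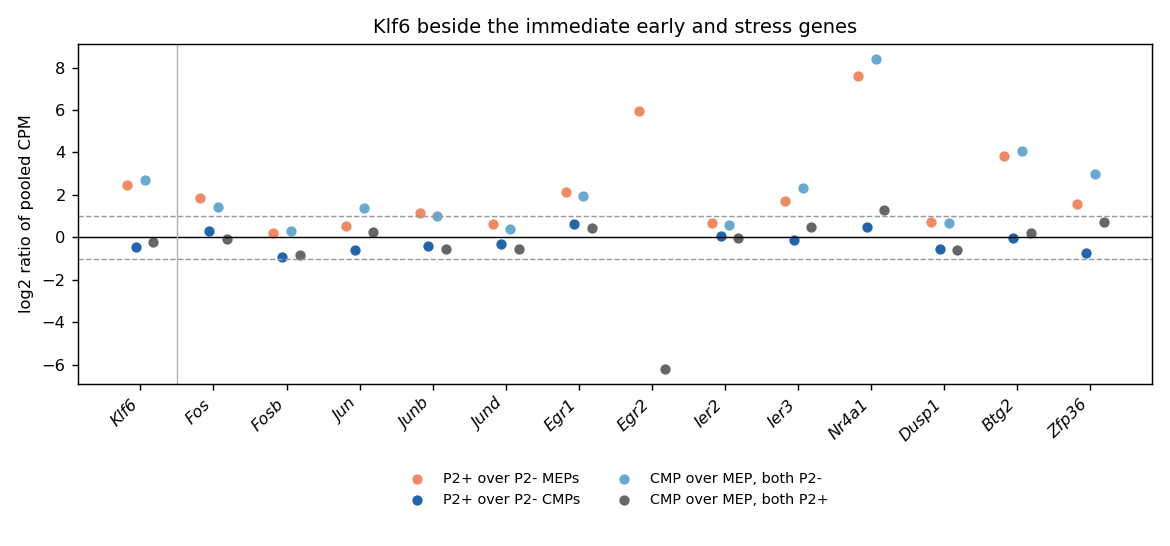
Log2 ratio of pooled CPM (y axis) of Klf6 and of the 13 immediate early and stress genes that passed the filter (x axis), with 1 point for each of the 4 comparisons and dashed lines at 2-fold. Klf6 lies at 2.47 and 2.71 in the comparisons with P2- MEPs, where Fos and Egr1 also lie above 1, and at -0.45 and -0.21 in the other comparisons, and both points of Egr2 are bounds against populations without a read.

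Klf10, known as a gene induced early by TGFβ, did not follow Klf6. It was at 25.8 CPM (24.01 to 27.6) in P2- and 26.3 CPM (24.5 to 28.1) in P2+ MEPs, and at 19.6 CPM (17.7 to 21.8) in P2- and 29.2 CPM (27.5 to 31.1) in P2+ CMPs. Cells ranged from 0 to 166, 225.9, 125 and 154 CPM in the same order, with medians of 14.2, 0, 0 and 8.27 CPM. The 3 highest populations could not be put in an order, since the interval of each overlapped that of the next. No comparison reached 2-fold, and the log2 ratio farthest from 0 was 0.57 (0.40 to 0.75), for P2+ over P2- CMPs.

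Klf13, a SIN3A-binding member found in many tissues, was read in most cells of every population. Pooled levels were 61.7 CPM (58.9 to 64.5) in P2- and 93.1 CPM (89.8 to 96.6) in P2+ MEPs, and 86.1 CPM (81.9 to 90.5) in P2- and 103 CPM (100.1 to 107) in P2+ CMPs. Cells ran from 0 to 189, 326.1, 256.5 and 290.99 CPM in the same order, with medians of 51.2, 89.7, 63.6 and 84.7 CPM. The P2- MEPs were lowest, the intervals of P2+ MEPs and P2- CMPs overlapped, and no comparison reached 2-fold, the log2 ratio farthest from 0 being 0.59 (0.51 to 0.68) for P2+ over P2- MEPs. Between 80.9% and 85.7% of the cells of each population had a read.

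Klf2, a factor of quiescence and of the response of endothelium to flow, was low and higher in CMPs. It was at 2.22 CPM (1.73 to 2.82) in P2- and 3.14 CPM (2.55 to 3.82) in P2+ MEPs, and at 10.2 CPM (8.79 to 11.8) in P2- and 8.94 CPM (7.99 to 9.97) in P2+ CMPs. The 2 MEP populations had overlapping intervals, as did the 2 CMP populations. Reads were found in 3 of 56 P2- and 5 of 47 P2+ MEPs and in 5 of 27 P2- and 10 of 42 P2+ CMPs, the median was 0 CPM in each population and the highest cells reached 65.6, 56.3, 161 and 115 CPM in the same order. CMPs over MEPs gave log2 ratios of 2.20 (1.79 to 2.62) in P2- and 1.51 (1.18 to 1.85) in P2+ cells, both called higher. Of 5 endothelial markers tested, 5 were higher in CMPs among P2- cells (against 22.4% of all genes) and 3 among P2+ cells (17.0%). In P2+ over P2- MEPs 4 of the 5 were also called higher (14.9%), where Klf2 was not called. In P2+ over P2- CMPs 1 was higher (9.75%). The summed level of the endothelial markers over cells was 0 to 51.9 CPM (P2-) and 0 to 234.99 CPM (P2+) in MEPs. In CMPs it was 0 to 747 CPM (P2-) and 0 to 689 CPM (P2+), and 0 of the 7 listed markers were at 0 reads throughout. Their part in the Klf2 result was not tested. P2+ over P2- ratios of Klf2 were 0.50 (0.04 to 0.96) in MEPs and -0.19 (-0.45 to 0.08) in CMPs. Leaving out the cell of highest CPM in each population moved the former to 1.45 and turned the latter to 0.29, since 1 cell held 63.2% of the 68 reads in P2- MEPs and 1 cell 55.6% of the 187 in P2- CMPs.

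Klf7, best known from neurons, was at 2.68 CPM (2.13 to 3.33) in P2- MEPs and between 5.13 and 6.02 CPM in the other 3 populations, whose intervals overlapped. Its median over cells was 0 CPM in each population, and the highest cells reached 72.99 CPM (P2-) and 225.9 CPM (P2+) among MEPs and 107 CPM (P2-) and 64.8 CPM (P2+) among CMPs. It was called higher in P2+ over P2- MEPs, at 1.17 (0.79 to 1.56), where 1 cell held 40.0% of the 190 reads of P2+ MEPs and another 43.9% of the 82 of P2- MEPs. For P2- CMPs over P2- MEPs the ratio was 0.94 (0.49 to 1.38), short of 2-fold, but passed it at 1.28 when every cell was given equal weight.

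Klf4, a pluripotency factor that also acts in monocytes, had 98 reads in all and a mean count of 0.570 per cell, under the filter. Its reads came to 58 (P2-) and 9 (P2+) in MEPs and to 0 (P2-) and 31 (P2+) in CMPs, and 1 cell held 29 of the last. With 3 reads set in place of the 0 of P2- CMPs, the log2 ratio to P2- MEPs was -3.53, without counting error. Leaving out the cell of highest CPM in each population moved it to -2.95. At 100000 reads 5 of 56 P2- MEPs (8.93%) and 0 of 27 P2- CMPs had a read. The upper limit for 0 of 27 was 12.8% (Clopper-Pearson), above the share in P2- MEPs.

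**Figure D3:**
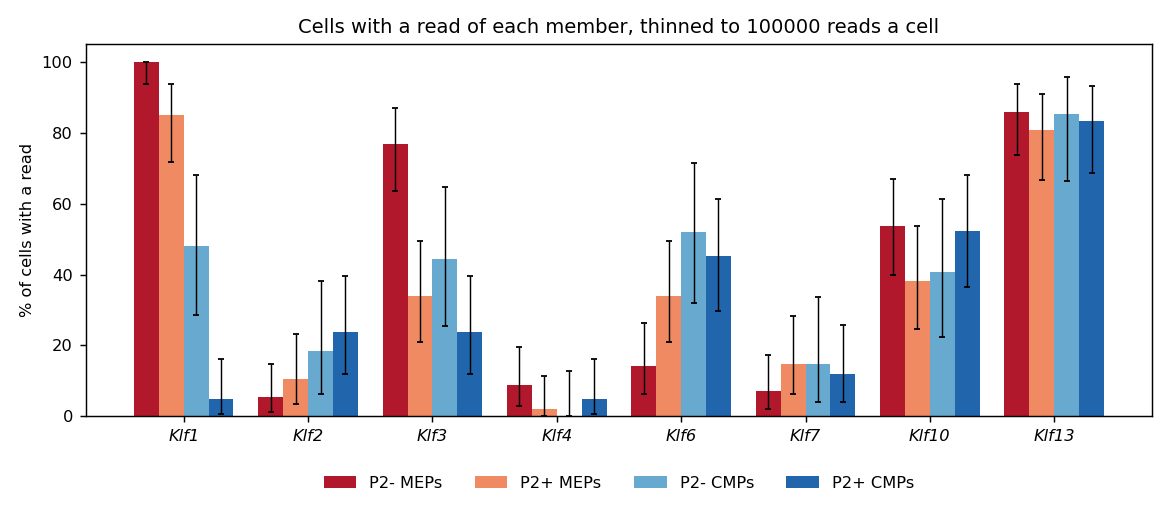
Percent of cells with a read of each member (y axis) after thinning to 100000 reads per cell, by member (x axis) and population (bar colour), with Clopper-Pearson 95% intervals as error bars. Klf1 falls from 100% of P2- MEPs to 4.76% of P2+ CMPs, Klf3 stands at 76.8% of P2- MEPs against 34.0% of P2+ MEPs, Klf6 at 14.3% against 34.0%, and Klf13 is above 80% in each population.

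Read by comparison, 2 of the 7 members that passed the filter, Klf6 and Klf7, were called higher and 0 lower in P2+ over P2- MEPs. Of all 11860 genes tested 14.9% were called higher and 6.42% lower there. In P2+ over P2- CMPs 0 of 7 were called higher and 1, Klf1, lower, against 9.75% and 9.31% of all genes. In CMPs over MEPs, 2 (Klf2 and Klf6) were higher and 2 (Klf1 and Klf3) lower among P2- cells, against 22.4% and 9.21%, and 1 (Klf2) was higher and 2 (Klf1 and Klf3) lower among P2+ cells, against 17.0% and 10.3%. With 7 members, counts of 0 to 2 in a direction are too small to be read against these background shares. Equal weight for every cell, without a counting interval, put 5 members past 2-fold in P2+ over P2- MEPs, with Klf1 at -1.10, Klf2 at 1.02 and Klf3 at -1.12 added to Klf6 at 2.12 and Klf7 at 1.61. The comparisons share populations and are given side by side only.

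**Figure D4:**
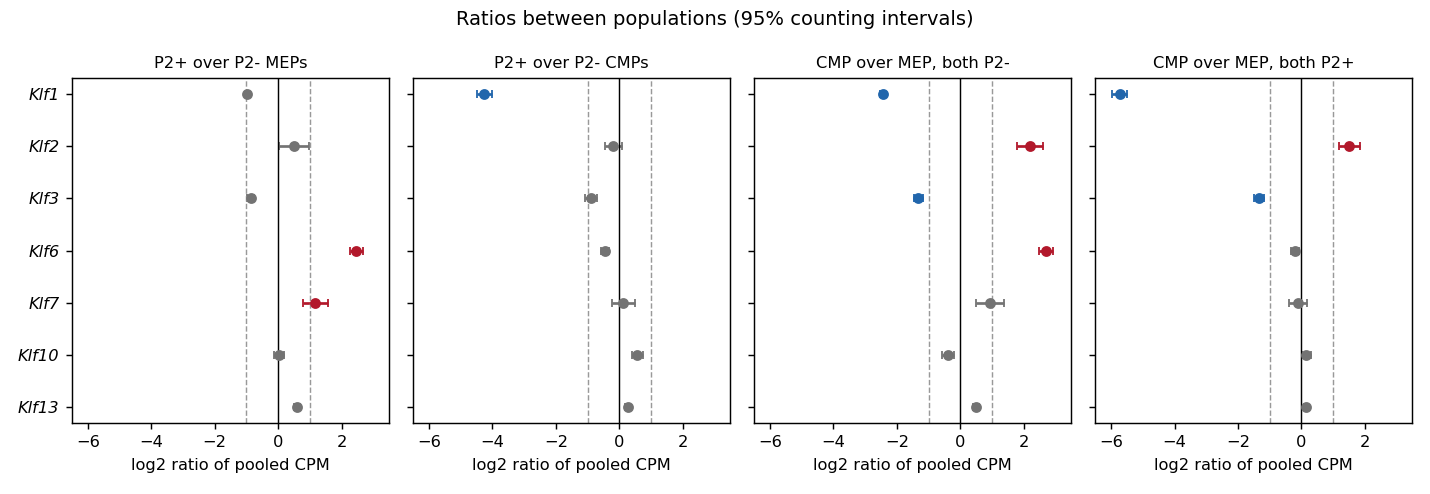
Log2 ratio of pooled CPM (x axis) of the 7 members that passed the filter (y axis) in the 4 comparisons (panels), with 95% counting intervals as bars and dashed lines at 2-fold. Red points were called higher and blue points lower, and grey points were not called. Klf1 lies farthest left, at -5.73 for CMPs over MEPs among P2+ cells, and Klf6 farthest right, at 2.71 for CMPs over MEPs among P2- cells.

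To compare members with each other, pooled CPM was divided by the length of all annotated exons of each gene in kb. Klf1 stood at 312.2 CPM per kb in P2- MEPs, against 8.19 for Klf13, the next member. In P2+ MEPs the values were 159 and 12.4, and in P2- CMPs 57.1 and 11.4. In P2+ CMPs the order began with Klf13 at 13.7, Klf6 at 7.48, Klf10 at 6.998, Klf2 at 4.84 and Klf1 at 3.003 CPM per kb, where the intervals of Klf6 and Klf10 overlapped. Within P2- CMPs the intervals of Klf13 and Klf6 overlapped, as did those of Klf2 and Klf10, and in P2- MEPs those of Klf6 and Klf2.

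The summed level of all 17 Klf genes was 351.1 CPM per kb (P2-) and 208.2 CPM per kb (P2+) in MEPs, and 103 CPM per kb (P2-) and 46.7 CPM per kb (P2+) in CMPs. Klf1 made up 88.9%, 76.4%, 55.5% and 6.43% of it in that order, so that the fall of the sum was that of Klf1. Without Klf1 the rest came to 38.9 CPM per kb (P2-) and 49.03 CPM per kb (P2+) in MEPs and to 45.8 CPM per kb (P2-) and 43.7 CPM per kb (P2+) in CMPs. The share of Klf13 was 2.33%, 5.94%, 11.1% and 29.4%, while its own level went from 8.19 to 13.7 CPM per kb. By cell, Klf1 was the highest Klf gene per kb in 56 of 56 P2- and 38 of 47 P2+ MEPs and in 12 of 27 P2- and 2 of 42 P2+ CMPs, while Klf13 led in 0, 0, 4 and 19. In the P2+ CMPs Klf10 led in 9 cells, Klf6 in 5, Klf16 in 4 and Klf2 in 3. A cell held reads of a median of 3 members at 100000 reads in all populations but the P2+ CMPs, where the median was 2. These shares rest on the annotated exon length, which for Klf3 (11243 bases) and Klf7 (8131) takes in exons of several transcripts.

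**Figure D5:**
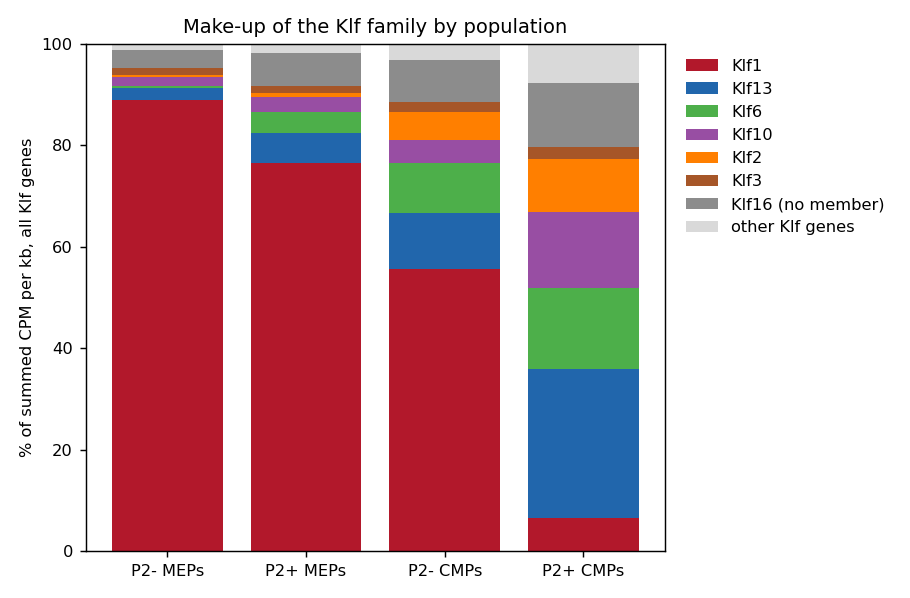
Share of each gene in the summed CPM per kb of all 17 Klf genes (y axis, percent) in the 4 populations (x axis, stacked bars). Klf1 makes up 88.9% in P2- MEPs and 6.43% in P2+ CMPs, where Klf13 takes 29.4%, Klf6 16.0%, Klf10 14.99% and Klf16 12.7%.

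Within populations the members were read in the same cells to different degrees. Spearman's rho over thinned cells was computed for member pairs with reads of each in at least 5 cells, as a description of cells that share a pool. Klf1 and Klf3 gave the highest rho of 21 pairs in P2+ MEPs (0.46, next 0.27 for Klf6 and Klf10) and of 15 pairs in P2- CMPs (0.44, next 0.30 for Klf6 and Klf13), but -0.01 in P2- MEPs, where every cell had Klf1. All 16 P2+ MEPs with a Klf3 read also had Klf1, as did 8 of the 12 P2- CMPs with one, where the shares of cells with each gene alone would give 13.6 and 5.78 cells with both. Klf6 was read beside Klf1 in 12 of its 16 P2+ MEPs and 6 of its 14 P2- CMPs, against 13.6 and 6.74. In P2+ CMPs only 2 cells had Klf1, too few to compare. In P2- MEPs and P2+ CMPs the highest rho was 0.16 and 0.19.

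Over all 172 cells, the genes whose pattern was most like each member were taken from the 8040 genes read in at least 25% of cells. For Klf1 they were Cpox (rho 0.83), an enzyme of heme synthesis, Blvrb (0.83), biliverdin reductase B, and Mt1 (0.80), a metallothionein. For Klf3 they were Klf1 (0.46), Blvrb (0.44) and Lgals1 (0.41), and for Klf6 Celf2 (0.36), Fos (0.36) and Mef2c (0.34). Klf13 (H2-D1 at 0.31, Limd1 and Deptor both at 0.29) and Klf10 (Golga1 at 0.28, Bahcc1 at 0.27, Paxbp1 at 0.26) had no gene above 0.31. Without thinning 2 of the 3 genes were the same for Klf1, Klf3, Klf6 and Klf10 and 1 of 3 for Klf13, and Klf2, Klf4 and Klf7 were read in too few cells.

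Of 15 erythroid genes known to depend on KLF1, 11 passed the filter. Of these, 4 were called lower and 1 higher in P2+ over P2- MEPs (against 6.42% and 14.9% of all genes), and 6 lower and 0 higher in P2+ over P2- CMPs (9.31% and 9.75%). In CMPs over MEPs 7 were lower and 1 higher among P2- cells (9.21% and 22.4%), and 9 lower and 1 higher among P2+ cells (10.3% and 17.0%). Their median log2 ratios were -0.61, -1.18, -2.08 and -6.07 in this order, with genes at 0 reads set at their bound, against 0.05, -0.02, 0.11 and 0.01 over all genes. Ermap, an erythroblast membrane protein, stood at 313.01 CPM (P2-) and 110 CPM (P2+) in MEPs and at 8.02 CPM (P2-) and 0 reads (P2+) in CMPs. In the same order Add2, an adducin subunit of the red cell membrane skeleton, stood at 85.1, 27.6 and 2.73 CPM and 0 reads, and Tspo2 at 81.3, 24.5 and 5.95 CPM and 0 reads. Fech, the last enzyme of heme synthesis, had reads in all 4 populations, at 134, 87.7, 31.5 and 21.1 CPM. The genes of the list called higher were Alas2 in P2+ over P2- MEPs and Hbb-bt in CMPs over MEPs among P2- as among P2+ cells.

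Among 20 regulators known to act upstream of Klf genes, 3 were called higher and 0 lower in P2+ over P2- MEPs (against 14.9% and 6.42% of all genes), and 1 higher and 2 lower in P2+ over P2- CMPs (9.75% and 9.31%). In CMPs over MEPs 8 were higher and 1 lower among P2- cells (22.4% and 9.21%), and 0 higher and 6 lower among P2+ cells (17.0% and 10.3%). The median log2 ratios were 0.39, -0.40, 0.54 and 0.05 in this order, against 0.05, -0.02, 0.11 and 0.01 over all genes, and the counts in P2+ over P2- cells lay near the background. Gata1, the erythroid activator of Klf1, was at 265.9 CPM (P2-) and 237.8 CPM (P2+) in MEPs and at 103 CPM (P2-) and 43.6 CPM (P2+) in CMPs. On the log2 scale it differed by -0.16 (-0.21 to -0.12) between P2+ and P2- MEPs, where Klf1 differed by -0.97. Mef2c, of the MEF2 family that activates Klf2, was at 41.6, 196, 187 and 174 CPM in the same order. Of 11 corepressors and coactivators that KLFs use, CtBP and SIN3 genes among them, 0 were called in any of the comparisons, with median log2 ratios between 0.01 and 0.11.

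The 9 other Klf genes included 3 without a read in any cell (Klf14, Klf15 and Klf17) and 5 that passed the filter. Of these, 1 was called higher and 1 lower in P2+ over P2- MEPs (against 14.9% and 6.42% of all genes), 2 and 1 in P2+ over P2- CMPs (9.75% and 9.31%), 1 and 3 in CMPs over MEPs among P2- cells (22.4% and 9.21%), and 0 and 3 among P2+ cells (17.0% and 10.3%), too few to be read against these shares. Klf16, which binds SIN3A, was the most abundant, at 33.8 CPM (P2-) and 36.5 CPM (P2+) in MEPs and at 22.96 CPM (P2-) and 15.9 CPM (P2+) in CMPs. In the same order Klf9 was at 7.78, 1.33, 0 and 0.275 CPM, and Klf8, a CtBP-dependent repressor like KLF3, at 0.457, 3.67, 0 and 4.79 CPM. Of the reads in P2+ MEPs, 1 cell held 81.0% for Klf9 and 57.8% for Klf8, and the 14 Klf8 reads of P2- MEPs and the 10 Klf9 reads of P2+ CMPs came from 1 cell each. Of 9 Sp genes 4 passed the filter, of which Sp1, the general factor of GC boxes, was level at 61.5, 62.6, 58.6 and 60.1 CPM. Sp4 was called lower in P2+ over P2- MEPs, at -1.13 (-1.44 to -0.83), and Sp2 higher in P2+ over P2- CMPs, at 1.24 (0.96 to 1.53), and 0 of the 4 were called in CMPs over MEPs.

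Markers of the lineages also differed between the populations. Of 10 erythroid markers, 8 were lower and 0 higher in CMPs over MEPs in P2- as in P2+ cells (against 9.21% and 10.3% of all genes lower). In P2+ over P2- cells 5 were lower and 1 higher among MEPs and 5 lower and 0 higher among CMPs (6.42% and 9.31% of all genes lower). Of 9 megakaryocytic markers tested, 9 were higher and 0 lower in P2+ over P2- MEPs (14.9% of all genes higher) and 3 higher and 1 lower in P2+ over P2- CMPs (9.75%). In CMPs over MEPs 7 were higher and 1 lower among P2- cells (22.4%), and 2 higher and 4 lower among P2+ cells (17.0% higher and 10.3% lower). Against the same shares of 22.4% and 17.0%, granulocyte/monocyte markers were higher in CMPs in 6 of 6 tested among P2- cells and 5 of 6 among P2+ cells, and stem and multipotent markers in 7 of 7 and 6 of 7. The remaining granulocyte/monocyte marker, Ms4a3, was called lower in CMPs among P2+ cells (10.3% of all genes lower). In P2+ over P2- MEPs 5 of the 6 granulocyte/monocyte and 4 of the 7 stem and multipotent markers were higher (14.9% of all genes). In P2+ over P2- CMPs 0 and 1 were higher (9.75%), and Ms4a3 was called lower (9.31%). The summed macrophage markers were at 1.27 CPM (P2-) and 22.01 CPM (P2+) in MEPs and at 135 CPM (P2-) and 144 CPM (P2+) in CMPs, where the highest cells reached 996 and 377.3 CPM. Both macrophage markers that passed the filter, Cd68 and Lyz2, were called higher in CMPs among P2- cells (22.4% of all genes), and Lyz2 among P2+ cells (17.0%). Both were also called higher in P2+ over P2- MEPs (14.9%) and neither was called in P2+ over P2- CMPs. Adgre1, C1qa, C1qb and Cd163 were at 0 reads in every cell. The summed mast and basophil markers were at 2.03 CPM (P2-) and 6.75 CPM (P2+) in MEPs and at 97.6 CPM (P2-) and 41.3 CPM (P2+) in CMPs, with cells of up to 485.6 and 566.4 CPM in the latter. Cpa3 and Hdc passed the filter. Both were called higher in CMPs among P2- cells (22.4% of all genes), and Cpa3 among P2+ cells (17.0%). In P2+ over P2- cells both were called higher among MEPs (14.9%) and lower among CMPs (9.31%). Ms4a2, Prss34 and Tpsb2 were at 0 reads. The summed lymphoid markers had no read in MEPs and were at 3.22 CPM (P2-) and 7.68 CPM (P2+) in CMPs, with Cd3e, Il7r, Dntt and Rag1 at 0 reads. Ighm, the only lymphoid marker tested, was called higher in P2+ over P2- CMPs (9.75% of all genes) and in CMPs over MEPs among P2+ cells (17.0%). The summed hepatocyte markers were between 11.04 and 38.2 CPM. Of 4 tested, 3 were called higher in CMPs among P2- cells (22.4%) and 2 among P2+ cells (17.0%). In P2+ over P2- cells 1 was higher and 1 lower among MEPs (14.9% and 6.42%), as among CMPs (9.75% and 9.31%). The part of these lists in the differences between KLF members was not tested.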

How the data were processed

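Single cells were sorted from the pooled livers into plates, with ERCC spike-ins and no molecular identifiers. The authors trimmed the reads with Trimmomatic 0.36, aligned them with STAR 2.4.2a to GRCm38 and counted them with HTSeq 0.6.1p1 on GENCODE M12 exons without strand, and deposited raw counts per gene and cell. The deposited table of alignment statistics gives unmapped reads as a percent of a cell's reads. The 5 tally rows that name no gene were left out of all totals (ambiguous reads were 25.6% and reads on no feature 7.40% of the reads of the kept cells in these rows and the gene and spike-in rows).

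Following the article's methods, cells with under 250000 reads, over 25% unmapped reads or over 15% of counted reads on ERCC features were removed, which took out 3 cells. From the counts, pooled CPM, log2 ratios and their intervals were computed in Python 3.11.15 with numpy 2.4.6 and scipy 1.17.1. Background shares cover mouse genes whose mean count reached 1. Where a population had 0 reads, 3 reads were used in their place to give a nominal bound, without counting error. Exon lengths and positions came from GENCODE M21, a later release on the same build. For shares of cells with a read, 100000 mouse-gene reads were drawn from each kept cell without replacement. The code for calls and intervals was run on simulated independent Poisson counts, the model that the intervals assume. That run checks the code and not how the intervals cover variation between cells.

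The members and gene lists were chosen with earlier results of these data known. Named genes are the 8 members, the 3 genes of highest rho for each member read in at least 25% of cells, and genes of the lists that carry a comparison. Alternatives were DESeq2 size factors (poscounts), equal weight per cell, every deposited cell, a denominator without mitochondrial genes and Rn18s-rs5, leaving out the cell of highest CPM per gene and population, dropping the P2- CMP whose labels conflict, a filter of 10 summed reads, and other thinning depths. Amino acid sequences were not used here.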

Additional observations from a re-analysis of the deposited data

Results flagged for a closer look

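Klf6 differed between the compartments in the direction of its P2+ over P2- ratio. It was higher in P2+ than in P2- MEPs (log2 ratio 2.47, 2.25 to 2.69) and lower in P2+ than in P2- CMPs (-0.45, -0.58 to -0.32), a difference of 2.92 on the log2 scale. Each population is 1 sample, so the difference was not tested.

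The 3 cells removed by the filters entered only the alternative with every deposited cell. The removed P2+ MEP held reads above the floor of 3 for some members, with 127 of Klf1, 17 of Klf3, 9 of Klf10 and 48 of Klf13.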

How the results depend on the processing

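The number of members past 2-fold changed by over 1.5 times under 4 of the 28 alternatives tried for it. For P2+ over P2- MEPs it went from 2 to 5 with equal weight per cell, where no counting interval applies, and to 4 without the cell of highest CPM. For P2+ over P2- CMPs it went from 1 to 2 with equal weight per cell, and to 2 with the filter of 10 summed reads, which admits Klf4. That filter also raised the number of all genes called, from 2533 to 4962 in P2+ over P2- MEPs, 2260 to 4931 in P2+ over P2- CMPs, 3753 to 6117 in CMPs over MEPs among P2- cells and 3239 to 6367 among P2+ cells. Of the 28 log2 ratios of the 7 members that passed the filter, 24 kept their sign and 23 their side of 2-fold under each of 6 alternatives in scaling, weighting and cells. Those that changed sign were Klf2 and Klf7 in P2+ over P2- CMPs, Klf7 in CMPs over MEPs among P2+ cells and Klf10 in P2+ over P2- MEPs, all of them under 2-fold. Across scalings the median log2 ratio of all genes moved by less than 0.1 (at most -0.09, with DESeq2 size factors in CMPs over MEPs among P2+ cells). Leaving out the cell of highest CPM moved it by -0.15 in CMPs over MEPs among P2- cells, where Klf1 was then at -2.70 and Klf6 at 2.99. Of 96 alternative shares of cells with a read, 94 stayed within the interval of the reported value. The exceptions were Klf2 in P2+ CMPs (42.9% without thinning) and Klf13 in P2- MEPs (69.6% at 50000 reads). No paired analysis was possible because each population is 1 sample. Klf2, Klf4 and Klf7 rest on few reads, and 1 cell held a large share of them in several populations.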

Other observations

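A pair of adult beta-globin genes in the list of KLF1-dependent genes went in opposite directions between CMPs and MEPs. Hbb-bs was at 65.6 CPM (P2-) and 111 CPM (P2+) in MEPs, against 0.545 and 0.605 CPM in CMPs. Hbb-bt was at 9.51 and 9.79 CPM in MEPs, against 232.2 and 121 CPM in CMPs. The genes are near-identical copies, so that reads shared between them could not be assigned and both counts are uncertain. Alas2, the erythroid enzyme that begins heme synthesis, was also higher in P2+ over P2- MEPs, at a log2 ratio of 1.96 (1.40 to 2.55), from 132 and 33 reads.

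Klf5, a member of the family best known from epithelia, was at 1.27 CPM (P2-) and 1.74 CPM (P2+) in MEPs and at 8.40 CPM (P2-) and 0.138 CPM (P2+) in CMPs, from 39, 55, 154 and 5 reads, of which 1 cell held 74.4%, 60.0%, 53.2% and 80.0%.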
